A study of Mus musculus with 2 samples.

Results

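Fos, Fosb, Jun, Junb, Jund, Egr1, Atf3, Ier2, Hspa1a and Hspa1b are immediate early and stress genes. The mRNA of most of them rises quickly when cells are stimulated, injured or taken out of a tissue. These 10 genes, of 32285 listed in the count matrices, were picked by symbol, and their levels were not used to pick them. They were measured by single-cell RNA sequencing in postischemic kidneys taken on day 14 after a unilateral 25 min clamp of the renal pedicle at 37 °C in male mice 8 to 10 weeks old. The PHD KO library came from a mouse with Cdh5-CreERT2, a tamoxifen-dependent Cre driven by the endothelial Cdh5 promoter, and floxed alleles of the prolyl hydroxylase genes (Phd1f/f, Phd2f/f and Phd3f/f). The Cre- library came from a littermate with the floxed alleles and without Cre, which received the same clamp and the same tamoxifen. Tamoxifen was given from the day after the clamp as 4 injections of 3 mg per mouse, every other day. The matrices hold 1 library per genotype, so no test between the genotypes was possible, and every interval given is an exact 95% interval of the counts of these libraries, which covers counting error only. The comparison asks how the members differ between the cell classes of the kidney, and whether the libraries differ in them alike in every class, as a difference in the handling of a whole library might.

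The members fall into families with known roles. Fos and Fosb encode leucine zipper proteins that pair with Jun, Junb or Jund to form the transcription factor AP-1. Egr1 encodes a zinc finger factor induced through serum response factor and the ERK kinases, Ier2 a small nuclear protein induced with it, and Atf3 a stress-induced factor of the ATF family. Hspa1a and Hspa1b are paralogs that encode the inducible HSP70 chaperone, which refolds damaged proteins, and heat shock factor 1 switches them on. Enzymatic dissociation of tissue at body temperature is known to induce most of these genes within minutes, and ischemia, cytokines and growth factors can induce them too. For these libraries the kidneys were dissociated with enzymes at 37 °C before capture.

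RefSeq upstream sequences on GRCm38.p6 were at hand for 8 of the 10 members, all but Egr1 and Ier2. The 150 bases before the annotated start are shown for both HSP70 genes, because their counts have to be told apart, and for Fos and Jun, because they stand for each side of AP-1. Capitals mark the heat shock element GAANNTTC and the CCAAT box CCAAT in Hspa1a, Hspa1b and Jun, the AP-1 variant TGACATCA in Jun, and the cyclic AMP response element core TGACG and the TATA box TATAAA in Fos, each sought on both strands, so that CCAAT reads as ATTGG where it lies on the opposite strand.
Hspa1a, chr17:34972157-34972306, minus strand: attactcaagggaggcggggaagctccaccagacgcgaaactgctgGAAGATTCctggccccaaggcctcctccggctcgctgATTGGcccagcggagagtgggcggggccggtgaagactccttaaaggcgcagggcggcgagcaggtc
Hspa1b, chr17:34959239-34959388, minus strand: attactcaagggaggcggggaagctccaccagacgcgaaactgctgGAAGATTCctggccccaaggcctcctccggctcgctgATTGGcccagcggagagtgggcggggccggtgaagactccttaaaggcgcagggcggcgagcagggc
Fos, chr12:85473740-85473889, plus strand: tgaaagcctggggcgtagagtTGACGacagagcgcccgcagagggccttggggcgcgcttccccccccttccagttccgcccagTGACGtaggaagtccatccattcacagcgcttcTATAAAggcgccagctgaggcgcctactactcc
Jun, chr4:95052223-95052372, minus strand: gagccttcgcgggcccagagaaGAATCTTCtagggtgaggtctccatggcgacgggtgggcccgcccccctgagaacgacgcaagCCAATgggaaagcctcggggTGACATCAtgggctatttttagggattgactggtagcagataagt

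The upstream stretches of Hspa1a and Hspa1b differed at 1 of these 150 bases and at 3 of 250. Each holds a heat shock element that begins 104 bases before the start. Over 250 bases before the start, GAANNTTC was present in 3 of the 8 members (Jun, Hspa1a and Hspa1b) and in 6.69% of 32851 upstream stretches in the table. TGACG was present in 4 members (Fos, Fosb, Junb and Atf3) and in 17.8% of all stretches, and TGANTCA, the usual AP-1 site, in none of the 8 members and in 6.75% of all stretches. TGACATCA was found in Jun and in 2.93% of all stretches, and the TATA box in Fos and in 12.4%. The GC box GGGCGG was found in 6 members and in 32.7% of all stretches, and CCAAT in 4 members and in 33.8%. A match describes the letters in this window and nothing more.

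Hspa1a and Hspa1b share 99.5% of aligned positions over their coding sequences of 1923 and 1926 bases. The last 400 bases of their transcripts, where a 3′ library takes most of its reads, were identical at only 51.4% of aligned positions, and no window of 50 bases from the end of either transcript occurred in the other. Reads from the ends could therefore be assigned to each gene, whereas reads from the coding sequence could not, so the split between both genes is less certain than their sum.

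The filters kept 8548 Cre- and 9309 PHD KO cells, with 118320351 and 132583769 UMIs in all and medians of 7500 and 7898 UMIs per cell. A UMI (unique molecular identifier) marks a single captured RNA molecule, and levels are given as CPM, the UMIs of a gene per 1000000 UMIs of the cells summed. Clustering without the members and their related lists gave 30 clusters, and 17 classes with at least 50 cells in each library were named from their markers. They hold 15488 of the 17857 cells, and the others stayed numbered or were too few. Kidney markers were present: PT-like cells were led by Slc34a1 and Lrp2, TAL-like cells by Slc12a1 and Umod, and pericyte-like cells by Myh11 and Rgs5. The mitochondrial share of UMIs was 7.01% in the Cre- and 5.06% in the PHD KO library and was lower in the PHD KO library in every named class. Both libraries held the same barcode in 28 cases. In endothelial-like cells Egln1, which encodes PHD2, was at 67.2 CPM in Cre- cells and at 202 in the library labelled PHD KO, and Egln3 was at 26.2 and 160. These 3′ counts need not lie in the deleted exons, so they do not check the label.

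The 8 immediate early members together stood at 10049 CPM in Cre- and 11160 in PHD KO cells. Among the named classes, to which all ranks given here are limited, endothelial-like cells had a mean level above the others, with 17692 CPM (interval 17537 to 17849) in Cre- and 18649 (18511 to 18787) in PHD KO cells. Thin limb-like cells stood at 17304 and 18418, and pericyte-like cells at 18383 and 16197. Cluster 24, which carries endothelial and mural markers and was not named, was above all of them, at 21818 and 19352. Its cells held a median of 22416 UMIs, beside 15157.5 in thin limb-like and 4773 in pericyte-like cells. In the endothelial-like clusters 15 and 20 the medians were 7812.5 and 3609. Whether depth or mixed barcodes raised its level was not tested. The named classes changed places with the library: pericyte-like cells led in the Cre- library and endothelial-like cells in the PHD KO library. The lowest levels belonged to dendritic-like cells, at 4381 and 4857, B-like cells, at 5051 and 4238, T-like cells, at 4930 and 4727, and PT-like cells, at 4807 and 5999. The highest class was 4.20 times above the lowest in the Cre- library and 4.40 times in the PHD KO library, and the order of the classes was similar in both, with r = 0.95 over the 17 classes on the log2 scale, which share libraries and clustering.

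Hspa1a and Hspa1b followed another order and spanned a wider range. Their summed level was 959 CPM (interval 923 to 996) in Cre- endothelial-like cells and 750 (723 to 778) in their PHD KO counterparts, more than 2 times that of the next class, thin limb-like, at 292 and 360. PT-like cells, at 50.4 and 45.2, T-like cells, at 41.9 and 57.2, and B-like cells, at 33.1 and 32.2, were at the bottom. Endothelial-like cells were thus at the top of the named classes in both libraries, and their intervals did not overlap with those of another named class. Cluster 24 was close to them, at 908 (868 to 949) and 694 (662 to 728), with intervals that overlapped theirs. The range from top to bottom was 29.0 times in the Cre- and 23.3 times in the PHD KO library, with only 6 and 5 UMIs of the pair in all B-like cells.

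**Figure D1:**
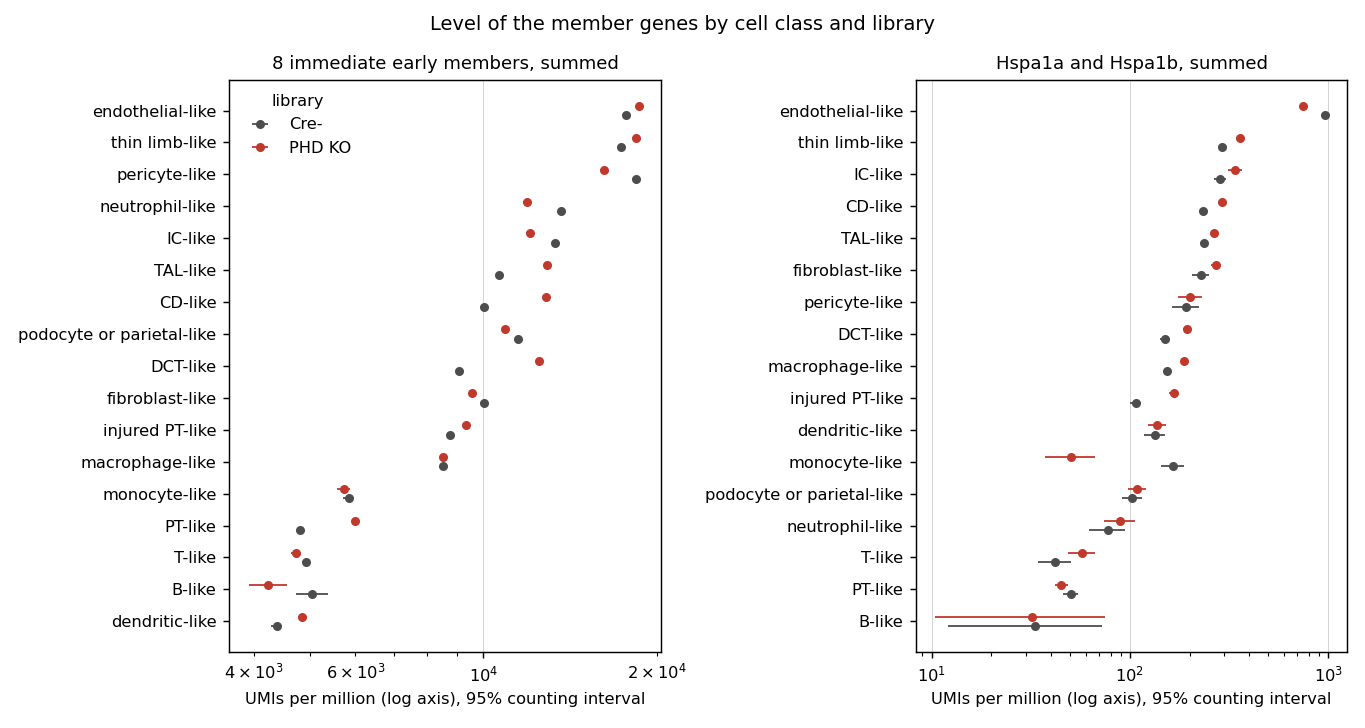
Summed level of the 8 immediate early members (left) and of Hspa1a and Hspa1b (right) in CPM on a log axis, for the 17 named classes in the Cre- (grey) and PHD KO (red) libraries. Points are sums over all cells of a class and bars are exact Poisson 95% intervals; endothelial-like cells are at the top of the right panel with 959 and 750, and the monocyte-like points of that panel, 165 and 50.3, lie far apart.

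The members did not share 1 profile over the classes. Fos peaked in pericyte-like cells, at 5486 CPM in the Cre- and 4689 in the PHD KO library, and was lowest in T-like cells, at 402 and 352. Fosb was highest in pericyte-like (1218 and 989) and thin limb-like cells (1080 and 1089). Jun peaked in endothelial-like cells, at 3533 and 3984, and was lowest in B-like cells, at 182 and 187. Fos, Fosb, Jun and Egr1 kept close to each other from class to class: Fos and Egr1 levels correlated with r = 0.97 in the Cre- and 0.96 in the PHD KO library, Fos and Jun with 0.91 and 0.91, and Fos and Fosb with 0.91 and 0.91 (17 classes, log2 scale).

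Junb stood apart from its AP-1 partners. It was highest in neutrophil-like cells, at 5387 CPM in the Cre- and 4534 in the PHD KO library, and it was also high in T-like cells, at 2609 and 2585, where Fos and Jun were near their lowest. PT-like cells had the least Junb, at 559 and 590. Over the classes its levels correlated with those of Fos at r = 0.16 and 0.06, and with those of Jun at r = -0.11 and -0.15, but with those of Ier2 at 0.77 and 0.69. Jund was the most even member, with 3.42 and 3.38 times between its highest and lowest class. Thin limb-like cells were highest (2441 and 2725), and the lowest were dendritic-like cells (714) in the Cre- and monocyte-like cells (806) in the PHD KO library.

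Among the named classes Egr1 and Ier2 were highest in endothelial-like cells, and cluster 24 had Egr1 at 3568 and 3041 CPM and Ier2 at 1346 and 962. Egr1 was at 3001 and 2995 CPM there and at 148 and 133 in T-like cells, and Ier2 at 1165 and 971 in endothelial-like and at 104 and 85.6 in PT-like cells. Atf3 was highest in thin limb-like (2170 and 2088), IC-like (1887 and 1674) and TAL-like cells (1534 and 2010), and was at 665 and 705 in endothelial-like cells, below most epithelial classes. Epithelial and endothelial classes thus led in different members.

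**Figure D2:**
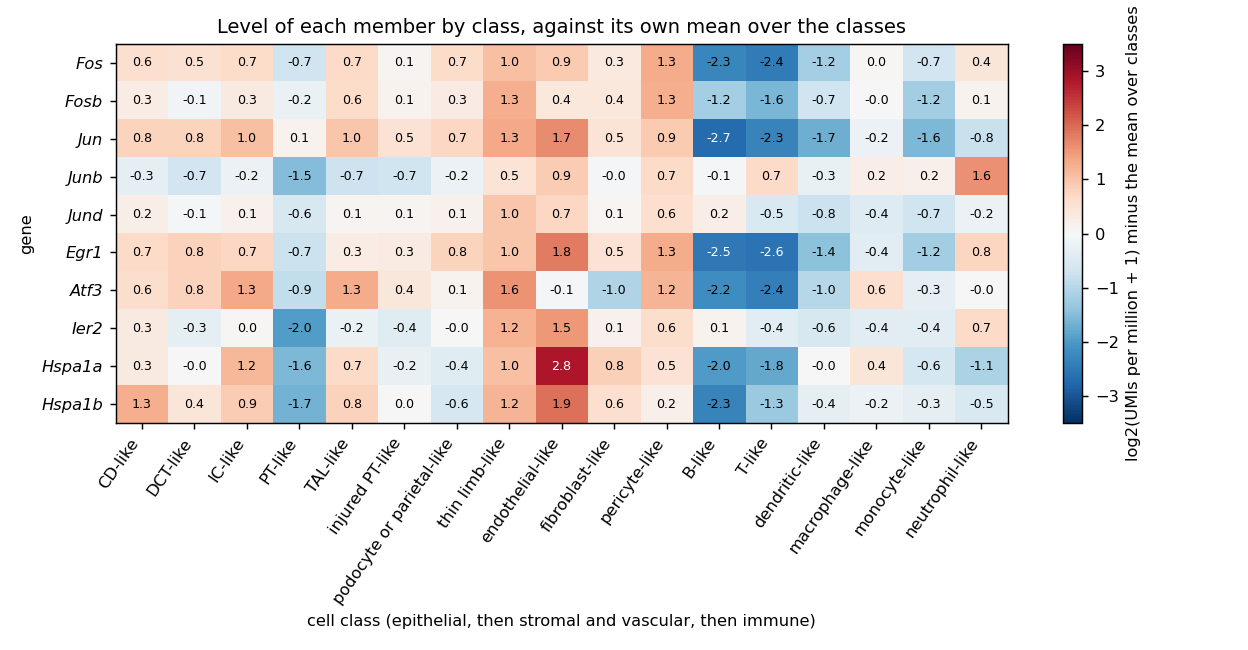
Level of each member in each class as log2(CPM + 1), mean of both libraries, minus the mean of that member over the 17 classes; red is above and blue below the member's own mean. The Junb row is highest in neutrophil-like cells, and the Hspa1a and Hspa1b rows in endothelial-like cells.

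Of 11689 genes that reached 1000 UMIs, those whose level ran most like the immediate early sum over the 34 points of class and library were Rhob (r = 0.87), a small GTPase gene that is itself induced early, Calm2 (0.86), which encodes calmodulin, Rheb (0.86), an activator of mTORC1, Pdlim7 (0.85) and Klf7 (0.84). Those most like the HSP70 sum were Kank3 (0.86), Mmp15 (0.84), Acer2 (0.84), Gnb1 (0.84) and Smad1 (0.83). None of these 10 genes is a member. The points share cells of the same libraries and the same clustering, so these values describe likeness only.

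In all kept cells the immediate early sum was higher in the PHD KO library by a log2 ratio of 0.15 (interval 0.15 to 0.15), and the HSP70 sum by 0.14 (0.11 to 0.16). The median ratio of all 15780 genes with at least 100 UMIs was 0.04. Atf3 (0.29), Jund (0.25) and Fos (0.24) were higher, Jun (0.13) and Fosb (0.06) less so, Egr1 (0.04) and Junb (0.01) were near the median of all genes, and Ier2 was lower (-0.13). Hspa1b was higher (0.33, interval 0.29 to 0.36) and Hspa1a was at 124 CPM in both libraries (ratio -0.00, -0.04 to 0.03). None of the 10 members differed by 1.5-fold in either direction, against 2.21% of all genes that were at least that much higher and 1.98% that were at least that much lower.

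These sums over all cells did not describe every class. The immediate early sum was higher in the PHD KO library in 9 of the 17 classes and lower in 8, with the counting interval above 0 in 8 classes and below 0 in 7. Its log2 ratio ran from 0.46 (0.45 to 0.47) in DCT-like cells to -0.25 (-0.40 to -0.11) in B-like cells. The median over classes was 0.00 and the SD between classes 0.21, against a typical counting error of 0.02. In these counts the libraries therefore did not differ alike in every class: the direction depended on the class. The spread was wider than counting error, which leaves out the differences between single cells of a class. Among 2422 genes with at least 100 UMIs in 15 or more classes, the median SD between classes was 0.17 and the upper quartile 0.22. The spread of the sum was thus near that upper quartile. Single genes with as few as 100 UMIs carry more counting error than a sum of 8 genes, so these spreads are not fully alike. Each class ratio rests on 1 mouse per genotype, and the spread between mice cannot be known from these libraries.

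**Figure D3:**
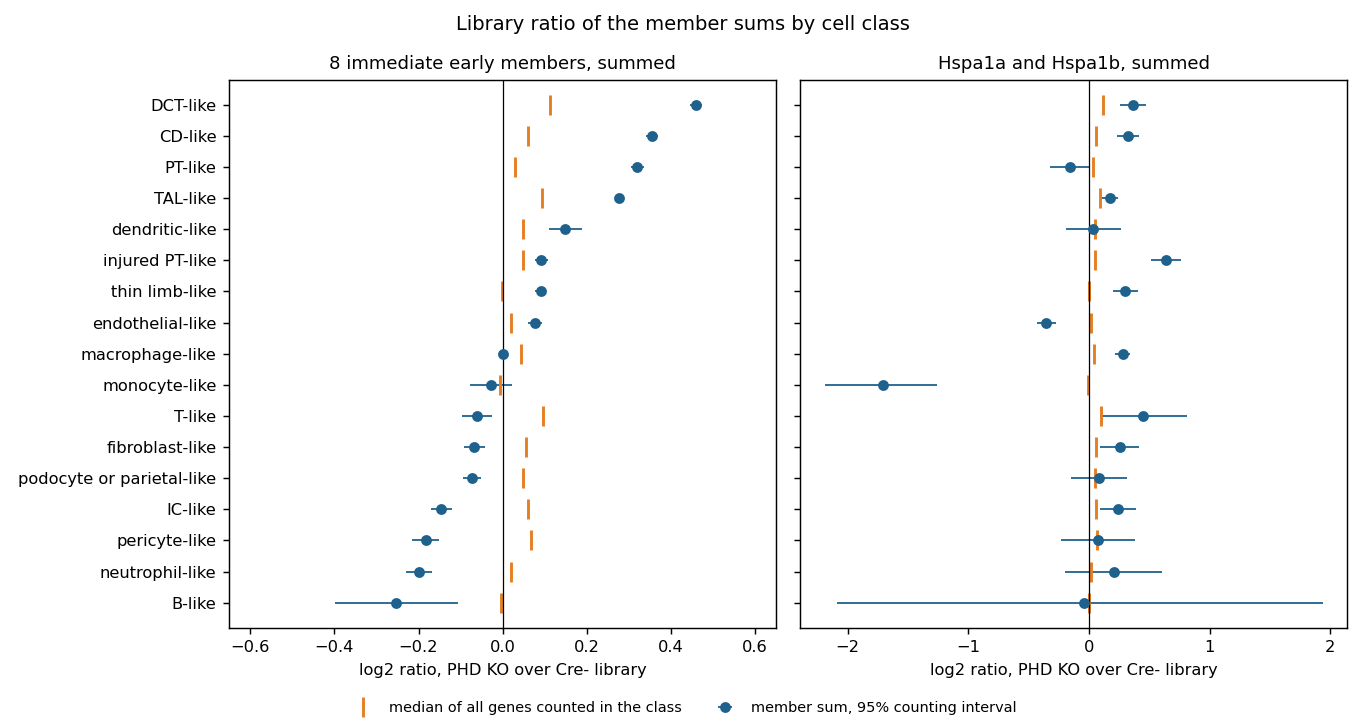
Log2 ratio of the PHD KO over the Cre- library for the summed immediate early members (left) and the summed Hspa1a and Hspa1b (right) in each named class, with exact 95% counting intervals; orange ticks mark the median ratio of all genes counted in that class. Left, classes lie on both sides of 0, from DCT-like (0.46) to B-like (-0.25); right, monocyte-like cells (-1.71) lie far below the others.

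As a group the epithelial classes had more of the immediate early members in the PHD KO library. Over the 8 epithelial classes together the immediate early sum was at 9710 CPM in the Cre- and 11089 in the PHD KO library, a log2 ratio of 0.19 (0.19 to 0.20), with 6 classes higher and 2 lower and a median over classes of 0.18. All 8 members were higher in the PHD KO library in DCT-like, CD-like and TAL-like cells, and 7 of 8 in PT-like cells, where 67.6%, 60.0%, 67.0% and 56.2% of all genes counted were higher too. As means within tertiles of mitochondrial share, Fosb (-0.28), Junb (-0.14) and Ier2 (-0.33) were below 0 in DCT-like cells, Junb (-0.01) and Ier2 (-0.14) in TAL-like cells, and 5 of 8 members in PT-like cells, Atf3 (-0.18) among them. Fos was at 2396 and 3606 CPM in DCT-like cells (log2 ratio 0.59, 0.56 to 0.62) and at 2598 and 3611 in CD-like cells (0.47, 0.45 to 0.50). In TAL-like cells it was at 2920 and 3583 (0.29, 0.28 to 0.31). Its means within the same tertiles were 0.24, 0.46 and 0.18. Fos thus lay at a similar level in these 3 classes of the PHD KO library, whereas IC-like cells were at 3362 and 3108 and went the other way.

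Of the immediate early members, Atf3 gave the largest epithelial ratios. It was at 756 CPM in CD-like cells of the Cre- and 1421 of the PHD KO library (log2 ratio 0.91, 0.86 to 0.96). In DCT-like cells it was at 961 and 1521 (0.66, 0.62 to 0.70). As means within tertiles of mitochondrial share, the ratio was 0.94 in CD-like but only 0.12 in DCT-like cells. In thin limb-like (-0.06) and IC-like cells (-0.17) it was lower. Jun in PT-like cells, the main reabsorbing cells of the nephron, was at 1064 and 1497 (0.49, 0.46 to 0.53). Jund was higher in 8 of 8 epithelial classes, with the interval above 0 in 6. Its ratio ran from 0.01 in podocyte or parietal-like and IC-like cells to 0.54 in DCT-like cells. Within these tertiles Jun in PT-like cells was at 0.22 and Jund in DCT-like cells at 0.28. Of all genes counted, from 49.9% (thin limb-like) to 67.6% (DCT-like) were higher in the epithelial classes.

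IC-like cells, the acid-base cells of the collecting duct, went the other way. Their immediate early sum was at 13310 and 12034 CPM (log2 ratio -0.15, -0.17 to -0.12). Of the members, 7 of 8 were lower, Jund alone being higher by 0.01 (-0.06 to 0.08), while 59.4% of all genes counted were higher. Cluster 6, which carries IC and CD markers together and a median of 50431 UMIs per cell, was higher instead (0.24, 0.23 to 0.25), and at a clustering resolution of 0.4 the IC-like ratio became 0.21. The direction in IC-like cells therefore rests on how these cells are split. Podocyte or parietal-like cells were also lower in the sum (-0.07, -0.09 to -0.05), with 4 members higher and 4 lower.

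In the stromal and vascular classes Fosb, Junb and Ier2 were lower. The immediate early sum was higher in endothelial-like (0.08) and lower in fibroblast-like (-0.07) and pericyte-like cells (-0.18). Fosb had ratios of -0.16, -0.28 and -0.30 in these 3 classes, Junb of -0.04, -0.08 and -0.31, where the interval of the first reached 0, and Ier2 of -0.26, -0.68 and -0.35. Pooled values are not given, because fibroblast-like cells numbered 167 in the Cre- and 309 in the PHD KO library and had the lowest level of the 3. In pericyte-like cells, which wrap vessels and include renin cells, 7 of 8 members were lower, while 57.9% of all genes counted were higher. Fos was at 5486 and 4689 (-0.23, -0.29 to -0.17) and Junb at 2875 and 2325 (-0.31, -0.39 to -0.22). As means within tertiles of UMIs per cell, Fosb (-0.46), Junb (-0.10) and Egr1 (-0.10) were below 0. Fos (0.12), Jun (0.18), Jund (0.06), Atf3 (0.39), Ier2 (0.01) and the sum (0.03) were above 0, so the direction depended on depth. In fibroblast-like cells Ier2 was at 508 and 316 (-0.68, -0.80 to -0.56) while Fos was at 2607 and 2611, a ratio of 0.00.

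Endothelial-like cells, the class in which Cre is active, joined clusters that went opposite ways. The sum over the class had a log2 ratio of 0.08 (0.06 to 0.09), with 4 members higher and 4 lower. Cluster 20, led by Plvap, Gpihbp1 and Kdr, genes of capillary endothelium, was at 10519 CPM in the Cre- and 13898 in the PHD KO library (0.40, 0.37 to 0.44). Cluster 15 was at 21747 and 20963 (-0.05, -0.07 to -0.03). Its top genes included Sox17, Gja4 and Fbln5, genes of larger vessels, and also Igfbp3 and Aqp1, which the paper uses among its kidney endothelial markers. The type of vessel was therefore not settled. Jun was at 2213 and 3280 in cluster 20 (0.57, 0.49 to 0.64) and at 4279 and 4327 in cluster 15 (0.02, -0.03 to 0.06), and Fosb was higher in cluster 20 (0.40) and lower in cluster 15 (-0.39). Cluster 24, which joins endothelial and mural markers, was lower in the sum (-0.17, -0.19 to -0.15). The mitochondrial share was lower in the PHD KO library by a like amount in both clusters, from 4.73% to 3.06% in cluster 20 and from 4.64% to 2.81% in cluster 15.

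In the immune classes together, most of them macrophage-like cells, the immediate early sum was level, at 7954 and 7919 CPM (log2 ratio -0.01, -0.01 to 0.00), but the members parted. Atf3 was higher in the 5 immune classes with 100 UMIs, with the interval above 0 in 3 of them, and was at -0.00 in neutrophil-like cells without the top cells. Its means within tertiles of mitochondrial share were -0.23 in T-like and -0.03 in macrophage-like cells. They were above 0 in dendritic-like (0.47), monocyte-like (0.09) and neutrophil-like cells (0.04). B-like cells had 23 and 29 Atf3 UMIs, 19 of the latter in 1 cell. Egr1, Ier2 and Junb were lower in 5 of 6 classes each, with the interval below 0 in 3, 4 and 2. Of all genes counted, from 49.0% (monocyte-like) to 65.1% (T-like) were higher in the immune classes. In macrophage-like cells, the largest class, the sum was at 8515 in both libraries (0.00), with Egr1 at 718 and 566 (-0.34, -0.37 to -0.31), Ier2 at 336 and 236 (-0.51, -0.56 to -0.46), Jund at 920 and 1006 (0.13, 0.10 to 0.16) and Atf3 at 1040 and 1123 (0.11, 0.09 to 0.14). Egr1 and Ier2 were lower in each of the 4 macrophage-like clusters, Egr1 by -0.46 to -0.23 and Ier2 by -0.50 to -0.33, where the interval of the last value reached 0.10. Within tertiles of mitochondrial share, the means of Fos (-0.06), Jun (-0.05), Atf3 (-0.03) and the sum (-0.11) were below 0 in macrophage-like cells. Those of Fosb (0.10) and Jund (0.06) were above 0. Within tertiles of UMIs per cell, Atf3 was at 0.14, Jund at 0.20 and the sum at 0.03. Over the whole macrophage-like class a level sum thus hid differences of opposite sign in single members.

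Neutrophil-like cells had less of most members in the PHD KO library. Their sum was at 13665 and 11910 CPM (-0.20, -0.23 to -0.17), Junb at 5387 and 4534 (-0.25, -0.30 to -0.20), Egr1 at 1556 and 1296 (-0.26, -0.36 to -0.17) and Ier2 at 694 and 504 (-0.46, -0.61 to -0.31). Dendritic-like cells had more Fos, at 755 and 1062 (0.49, 0.40 to 0.58), and Atf3, at 314 and 394 (0.33, 0.19 to 0.47). In T-like cells Fos (402 and 352) and Fosb (169 and 128) were lower, and Ier2 was at 291 and 292. B-like cells numbered 70 and 50, and their Ier2 (90 and 50 UMIs) and Jund (328 and 201 UMIs) were lower.

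**Figure D4:**
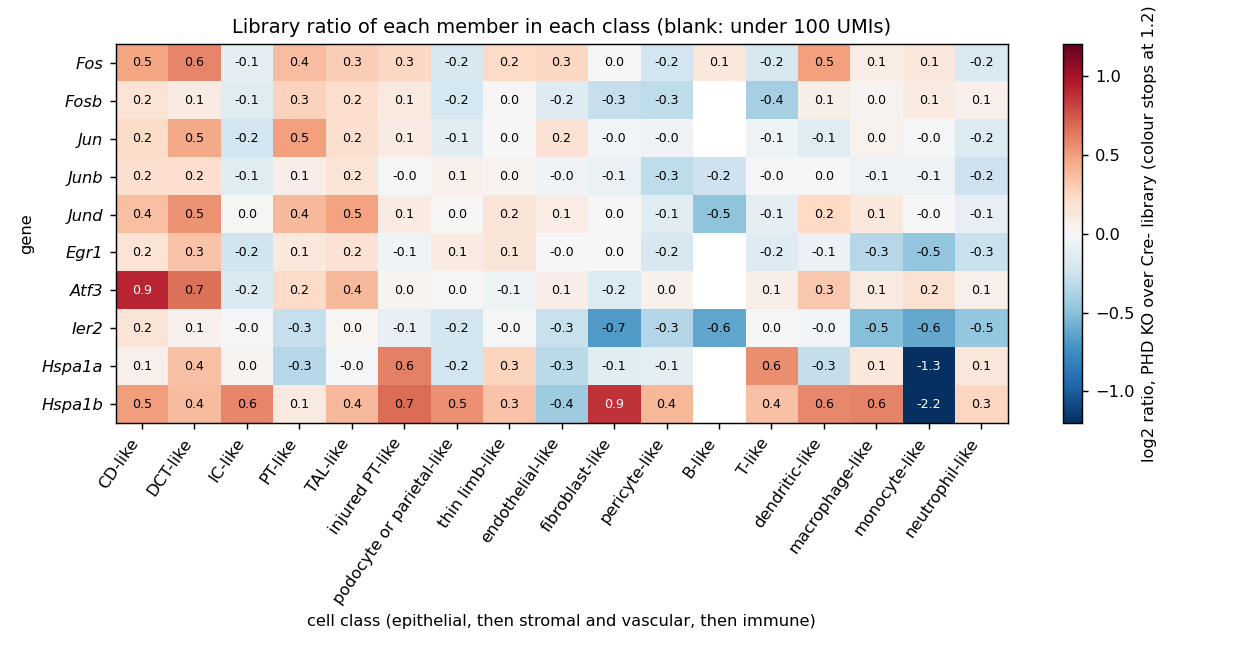
Log2 ratio of the PHD KO over the Cre- library for each member (rows) in each named class (columns), blank where both libraries together held under 100 UMIs; red is higher and blue lower in the PHD KO library. CD-like, DCT-like and TAL-like columns are red in all 8 immediate early rows, the Ier2 row is mostly blue, and the Hspa1b row mostly red apart from endothelial-like and monocyte-like cells.

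Read by member rather than by class, 3 of the 10 kept 1 direction in at least 75% of the classes in which they had 100 UMIs. Hspa1b was higher in 14 of 16 classes and Atf3 in 13 of 16, a pattern that 37.2% of the 2422 genes counted in 15 or more classes shared. Ier2 was lower in 13 of 17, which 14.5% of these genes also were. Without the top cells Atf3 was at -0.00 in neutrophil-like and -0.04 in pericyte-like cells, and Hspa1b at -0.00 in neutrophil-like cells. As means within tertiles of mitochondrial share, Atf3 fell below 0 in PT-like (-0.18), T-like (-0.23), endothelial-like (-0.09), macrophage-like (-0.03) and pericyte-like cells (-0.58). It stayed below 0 in IC-like, fibroblast-like and thin limb-like cells and above 0 in the other classes with 100 UMIs. Its direction over the classes was therefore not kept within these tertiles. Relative to the median of all genes in each class, Ier2 was lower in 16 of 17 classes, Hspa1b higher in 15 and Atf3 in 10. The share of all genes with such counts was not computed for this measure, so they are not read as a trait of the members. Fos and Jund were each higher in 12 of 17 classes, Fosb in 10 of 16, Jun in 8 of 16, Egr1 in 7 of 16 and Junb in 7 of 17. Of 164 pairs of member and class with 100 UMIs, 7 were at least 1.5-fold higher, or 4.27%, beside 3.26% of all pairs of gene and class, and 5 at least 1.5-fold lower, or 3.05%, beside 1.82%.

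Across classes the ratios of the immediate early members tended to move together. Over the 16 classes other than B-like, the ratios of Fos and Jund correlated with r = 0.87, those of Junb and Jund with 0.84 and those of Jun and Jund with 0.78. Ier2 was the loosest, with r = 0.19 against Fosb and 0.24 against Jun. Members of 1 class share cells and the total of UMIs, so these values are a description.

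The HSP70 sum was higher in more classes than the immediate early sum. It was higher in the PHD KO library in 13 of 17 classes and lower in 4, with intervals above 0 in 9 and below 0 in 2. Of the 2422 genes counted in 15 or more classes, 37.2% were higher in at least 75% of them, and the median gene was higher in 10. Such a count is therefore not particular to the pair. Injured PT-like cells, marked by Havcr1 and Krt20, were at 107 and 166 CPM (log2 ratio 0.64, 0.51 to 0.76), with Hspa1a at 56.8 and 86.3 and Hspa1b at 50.3 and 80.1. Both genes were higher there, but the sum lay below that of barcodes under 100 UMIs, which hold mostly free RNA, at 220 and 269. Endothelial-like cells, with the highest level, were lower (-0.35, -0.43 to -0.28): Hspa1a was at 675 and 539 (-0.32, -0.41 to -0.23) and Hspa1b at 284 and 211 (-0.43, -0.57 to -0.29). Within them cluster 15 was at 1210 and 827 (-0.55, -0.64 to -0.46) and cluster 20 at 514 and 591 (0.20, 0.04 to 0.37).

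Hspa1a and Hspa1b did not always go together. In fibroblast-like cells Hspa1b was at 69.3 and 126 CPM (0.87, 0.59 to 1.15) and Hspa1a at 158 and 145 (-0.13, -0.33 to 0.08). In macrophage-like cells Hspa1b was at 44.8 and 67.9 (0.60, 0.48 to 0.72) and Hspa1a at 110 and 120 (0.12, 0.04 to 0.20). Their levels over classes still ran alike, with r = 0.89 in the Cre- and 0.93 in the PHD KO library. The promoters shown above are nearly the same, and whether reads were split evenly between the paralogs was not tested.

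The lowest HSP70 ratio came from monocyte-like cells and rested in large part on a single cell. The class held 228 UMIs of the pair in the 242 Cre- cells and 49 in the 162 PHD KO cells, a log2 ratio of -1.71 (-2.19 to -1.26), but 59.6% of the Cre- UMIs lay in 1 cell, which carried 136. Without the top cell of each library the values were 67.2 and 39.4 CPM and the ratio -0.77 (-1.35 to -0.21). Among monocyte-like cells brought to 2000 UMIs each, 8.94% of Cre- and 8.07% of PHD KO cells had a UMI of the pair, beside 23.4% and 24.6% of all cells brought to that depth, which left out 1382 and 1411 shallower cells. Unthinned, 44.4% and 45.1% of all kept cells had one.

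HSP70 counts were concentrated in few cells elsewhere too: in all Cre- cells the top 10% of cells held 64.8% of the Hspa1a and Hspa1b UMIs and 54.7% of the immediate early UMIs. Per cell, the immediate early share of UMIs had a median of 1.56% in endothelial-like cells of the Cre- and 1.62% in those of the PHD KO library, with the central 80% of cells from 0.15% to 3.10% and from 0.14% to 3.15%. Pericyte-like cells had medians of 1.54% and 0.99%, DCT-like cells of 0.60% and 1.11%, CD-like cells of 0.74% and 1.05% and PT-like cells of 0.28% and 0.30%. The distributions overlapped widely in each of these classes. In PT-like cells the median barely differed while the 90th percentile went from 1.10% to 1.69%.

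The share of mitochondrial UMIs differed between the libraries and moved with the immediate early sum more than with the HSP70 pair. Within classes, cells in the high tertile of mitochondrial share had less of the immediate early sum than those in the low tertile in 13 of 17 classes of the Cre- library and in 15 of 17 of the PHD KO library, with median log2 differences of -0.29 and -0.44. CPM divides by all UMIs, mitochondrial ones among them, so a high mitochondrial share by itself lowers the CPM of the other genes. This holds for both sums, and its part in these differences was not measured. DCT-like cells had 10.3% mitochondrial UMIs in the Cre- and 6.01% in the PHD KO library, CD-like 9.68% and 6.55%, TAL-like 8.29% and 5.76%, and PT-like 12.4% and 9.83%. IC-like cells, at 10.7% and 7.84%, and pericyte-like cells, at 10.7% and 7.17%, had a drop of the same kind and a lower sum. Over the 17 classes the ratio of mitochondrial share and the ratio of the immediate early sum had r = -0.47, and that of the HSP70 sum r = 0.00. For the pair, high-tertile cells had more than low-tertile cells in 7 of 17 classes of each library.

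Split into tertiles of mitochondrial share set within each class, the ratio of the immediate early sum changed with the tertile. It was higher in the PHD KO library in 12 of 17 classes among low-tertile cells, in 6 among middle ones and in 5 among high ones. In DCT-like cells it was 0.24, 0.21 and -0.07, and their mean, 0.13, was less than the 0.46 of all DCT-like cells. In PT-like cells it was 0.35, 0.19 and -0.28 (mean 0.09), in CD-like cells 0.34, 0.13 and 0.53 (mean 0.33) and in TAL-like cells 0.27, 0.11 and 0.14 (mean 0.17). Neutrophil-like cells were lower in every tertile (-0.23, -0.20 and -0.17), and so were IC-like and T-like cells. Endothelial-like cells went from 0.20 to -0.03 and -0.35, with 30 Cre- cells in the low tertile, and their mean was -0.06 beside 0.08 for the whole class. Pericyte-like cells had a mean of -0.45, but of 0.03 within tertiles of UMIs per cell. The sign matched that of the whole class in all 3 tertiles in 6 of 17 classes, and the part of mitochondrial share in the class ratios was otherwise not tested.

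**Figure D5:**
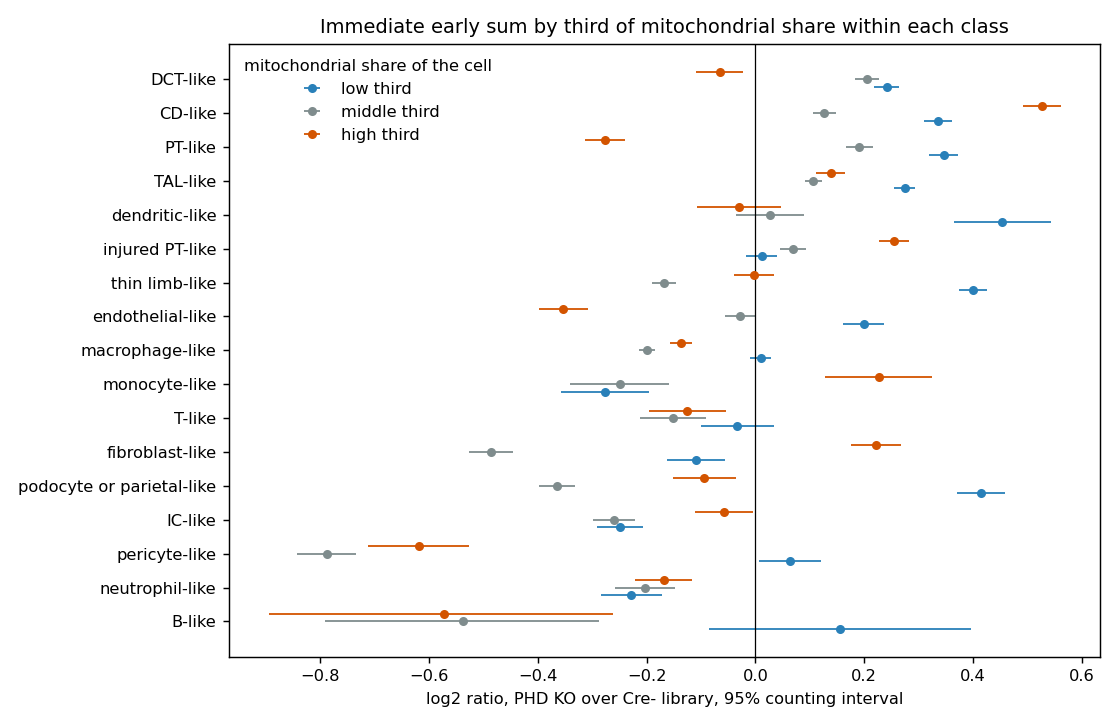
Log2 ratio of the PHD KO over the Cre- library for the summed immediate early members in each named class, for cells in the low (blue), middle (grey) and high (orange) tertile of mitochondrial share, with exact 95% counting intervals. Neutrophil-like cells lie below 0 in every tertile, CD-like and TAL-like cells above 0, and DCT-like and PT-like cells fall below 0 in the high tertile.

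Other genes of the same response were read from lists of 50 immediate early genes, 27 heat shock and chaperone genes and 24 upstream factors and kinases. All 50 other immediate early genes had 100 UMIs in all cells, and 30 were higher and 20 lower in the PHD KO library, with a median log2 ratio of 0.05 beside 0.04 for all genes. By class this list went with the members in some classes and against them in others. Its median was 0.30 in DCT-like (31 of 44 higher), 0.24 in CD-like (30 of 44) and 0.19 in TAL-like cells (35 of 46), and -0.15 in pericyte-like (9 of 34), -0.12 in monocyte-like (10 of 37), -0.11 in neutrophil-like (14 of 42) and -0.11 in IC-like cells (10 of 36). Medians of all genes in these classes lay between -0.01 and 0.11. In podocyte or parietal-like cells the list was at 0.13 (30 of 44 higher) while the member sum was at -0.07, in T-like cells at 0.04 (22 of 38) beside -0.06, in B-like cells at 0.10 with 8 genes counted beside -0.25, and in PT-like cells at 0.07 (24 of 42) beside 0.32.

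The highest of that list were Ccn2 (34.5 and 77.3 CPM, log2 ratio 1.16), a secreted target of YAP and of TGF-β, Jdp2 (9.80 and 15.2, 0.63), which pairs with Jun, and Per1 (15.4 and 23.0, 0.58), a clock gene also induced by glucocorticoids, which was higher in 12 of 12 classes counted. The lowest were Fosl1 (3.70 and 2.90, -0.35), a Fos paralog, Batf (9.92 and 8.01, -0.31), a partner of Jun proteins in lymphocytes, and Trib1 (171 and 145, -0.24). Fos-related genes of the list therefore lay at both ends. Jdp2 also headed the upstream list, of which 21 of 24 were higher and 3 lower (median 0.10), followed by Maf (193 and 245, 0.34) and Elk3 (43.7 and 51.3, 0.23), an ETS factor that acts with serum response factor. Atf4 (140 and 131, -0.11), the factor of the integrated stress response, Fosl2 (88.4 and 82.2, -0.11) and the kinase gene Map2k1 (28.3 and 27.3, -0.05) were lowest.

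Of the 27 other chaperone genes, 19 were higher and 8 lower, with a median of 0.06, beside 58.6% of all genes higher and a median of 0.04. Dnajb4 (42.4 and 50.8 CPM, 0.26) and Dnaja1 (294 and 340, 0.21), co-chaperones of HSP70, and Hspa5 (365 and 436, 0.26), the HSP70 of the endoplasmic reticulum, were highest, and Dnaja1 was higher in 17 of 17 classes. Hspb8 (17.1 and 14.3, -0.26), Dnaja4 (7.38 and 6.87, -0.10) and Hspe1 (319 and 300, -0.09), a mitochondrial co-chaperonin, were lowest. In endothelial-like cells, where Hspa1a and Hspa1b were lower, the median of this list was 0.12, with 15 of 25 genes higher, beside 53.1% of all genes.

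Barcodes under 100 UMIs, which hold mostly free RNA, carried the members at 7735 CPM in the Cre- and 8144 in the PHD KO library for the immediate early sum (log2 ratio 0.07, 0.05 to 0.09), and at 220 and 269 for the HSP70 pair (0.29, 0.18 to 0.40). These levels were above those of T-like, B-like, PT-like, dendritic-like and monocyte-like cells for both sums. For the HSP70 pair they were also above those of injured PT-like, DCT-like, macrophage-like, neutrophil-like, pericyte-like and podocyte or parietal-like cells. Injured PT-like cells had the pair at 48.7% of the free level in the Cre- and 61.9% in the PHD KO library. The free share estimated from markers of other lineages ran from 0.88% to 11.6% over classes and libraries. Taking it out removed 1.10% to 7.27% of the immediate early UMIs, and left 8 of 17 classes higher in that sum. For the HSP70 pair it removed up to 31.6%, in B-like cells, and 31.4% in PT-like cells of the PHD KO library. In injured PT-like cells it removed 8.29% of the pair in the Cre- and 13.1% in the PHD KO library.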

How the data were processed

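Single-cell suspensions of 1 kidney per genotype were captured with 10x 3′ v3.1 chemistry. The authors deposited raw UMI counts per gene and barcode, aligned to mm10 and counted with Cell Ranger (version 4.0 per the file headers), with no cell filter. The members, lists and tests were chosen with earlier results of these data known. Barcodes with 500 to 100000 UMIs, at least 200 genes and at most 50% mitochondrial UMIs were kept. They were clustered with Seurat 5.3.0 in R 4.3.3 (2000 variable genes, 20 components, resolution 0.8) without the members and their lists, and clusters were named from fixed markers. Simulated doublets called 412 (4.82%) Cre- and 420 (4.51%) PHD KO cells, which were kept.

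UMIs were summed per class and library (total UMIs 136004367 and 146758812 before the filters) and given per 1000000 UMIs of the class. Log2 ratios are PHD KO over Cre-, with exact 95% Poisson or conditional binomial intervals for counting error only. With 1 library per genotype no test was run, and edgeR 4.0.16 was used only for TMM scaling factors. Ratios by class were read as counted where both libraries together held at least 100 UMIs. The 10 members were named, with the 3 highest and 3 lowest genes of each other list and the 5 genes most like each sum in level. Alternatives changed the cell filters, doublets, clustering, scaling and free RNA, and those within tertiles, without top cells, centred, over named classes or as a mean over classes were chosen after seeing the data. The scripts were tested on simulated data.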

Additional observations from a re-analysis of the deposited data

Results flagged for a closer look

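Each member and each sum had at least 1 class that was higher and 1 that was lower in the PHD KO library, with counting intervals clear of 0 on both sides. With 1 mouse per genotype these differences between classes were not tested. How many of all genes meet this rule was not counted, so meeting it is not a trait particular to the members. Among 2422 genes the median SD between classes was 0.17. The log2 ratio of the immediate early sum was 0.71 higher in DCT-like (0.46) than in B-like cells (-0.25), and that of the HSP70 sum was 2.35 higher in injured PT-like (0.64) than in monocyte-like cells (-1.71). The latter class holds the single cell with 136 UMIs of the pair.

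Among the AP-1 members, the ratio of Fos was 0.82 higher in DCT-like than in pericyte-like cells, that of Fosb 0.68 higher in PT-like than in T-like cells, and that of Jun 0.72 higher in PT-like than in IC-like cells. Junb was 0.51 higher in DCT-like than in pericyte-like cells, and Jund 1.02 higher in DCT-like than in B-like cells. For the other members, Egr1 was 0.81 higher in DCT-like than in monocyte-like cells, Atf3 was 1.08 higher in CD-like than in IC-like cells, and Ier2 was 0.84 higher in CD-like than in fibroblast-like cells. Monocyte-like cells were also the low end for Hspa1a, 1.91 below injured PT-like cells, and for Hspa1b, 3.08 below fibroblast-like cells. Both gaps rest in part on the top cell. Without the top cell of each library, the monocyte-like ratios were -0.53 (-1.25 to 0.16) for Hspa1a and -1.24 (-2.36 to -0.24) for Hspa1b. An epithelial class was the high end for every member but Hspa1b. As means within tertiles of mitochondrial share, the DCT-like ratios were smaller, at 0.24 for Fos, -0.14 for Junb, 0.28 for Jund and 0.03 for Egr1. Within tertiles of UMIs per cell, Fos was at 0.76 in DCT-like and at 0.12 in pericyte-like cells.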

How the results depend on the processing

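No paired analysis was possible because each genotype has 1 library. The 14 alternatives planned and the 6 chosen after seeing the data kept the immediate early and HSP70 sums of all cells above 0. The immediate early ratio, 0.15 as reported, was 0.13 with a mitochondrial limit of 20%, 0.16 without doublets, 0.12 without mitochondrial genes, Gm42418 and Gm26917 in the total, 0.12 with TMM scaling, 0.057 as a mean over cells, 0.16 with free RNA subtracted, 0.11 centred on the median of all genes, 0.16 without top cells, 0.13 over named classes, 0.066 as a mean over 16 classes, and 0.16 and 0.048 as means within tertiles of mitochondrial share and of UMIs. The HSP70 ratio, 0.14 as reported, was 0.17 without doublets, 0.11 without mitochondrial genes, 0.11 with TMM, 0.10 centred, 0.17 over named classes, 0.074 over 16 classes, and 0.17 and 0.17 within the same tertiles.

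Members near 0 changed sign. Egr1 was -0.069 as a mean over cells, -0.047 over 16 classes and -0.10 within UMI tertiles, and Fosb was -0.022 over 16 classes. Junb was -0.013 with the 20% limit, -0.020 without mitochondrial genes, -0.016 with TMM, -0.083 as a mean over cells, -0.025 centred, -0.00021 over named classes, -0.015 over 16 classes, and -0.11 and -0.044 within tertiles of mitochondrial share and UMIs. The causes were not tested. The number of classes with a higher immediate early sum, 9 of 17, ran from 5 to 11 and was 5 at a resolution of 0.4, which names fewer classes. That for the HSP70 sum, 13, ran from 10 to 15. In 11 of 17 classes each sum kept its sign under every alternative that named the class. Depth limited the HSP70 pair in B-like cells to 6 Cre- and 5 PHD KO UMIs.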
